A study of Mus musculus with 60 samples.

Results

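The transcripts of 10 amino acid transporters and transporter subunits of the renal tubule, namely Slc6a19, Slc6a18, Slc6a20b, Slc7a9, Slc3a1, Slc7a13, Slc7a12, Slc7a7, Slc7a8 and Slc3a2, were followed in mice with and without the clock gene Bmal1 (symbol Arntl) in the tubule. They were chosen by name out of 55335 genes in the count files, each was matched to a single Ensembl gene, and all 10 passed the filter on low counts. RNA-Seq libraries came from 60 mice, with 5 mice of each genotype at zeitgeber time (ZT) 0, 4, 8, 12, 16 and 20, where ZT0 is lights on and ZT12 lights off. Control mice were Bmal1 lox/lox, and cKOt mice were Bmal1 lox/lox/Pax8-rtTA/LC1 Cre, in which doxycycline switches on Cre in cells that express Pax8. All mice were males of the C57BL/6J background and carried the lox/lox alleles, and both genotypes drank doxycycline at 2 mg/ml with sucrose at 20 mg/ml for 2 weeks from the age of 8 weeks. Per the methods of the study, the kidneys were collected 4 weeks after doxycycline ended. The RNA was labelled as renal tubule, while the methods of the study describe pieces of whole kidney, and podocyte markers were read at 89.7 to 158 CPM summed over 4 genes in control mice. Cells that do not express Pax8 keep Bmal1, and in such tissue fewer cells of a type and less RNA per cell cannot be told apart.

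The proximal tubule takes back nearly all filtered amino acids. Carriers of the apical membrane bring them into the cell together with sodium or in exchange for other amino acids, and carriers of the basolateral membrane pass them on to the blood. Several of these carriers work only as pairs, in which a light chain of the Slc7 family carries the substrate and a heavy chain, Slc3a1 or Slc3a2, brings it to the membrane. The apical carriers Slc6a18, Slc6a19 and the Slc6a20 proteins rely on partner proteins such as collectrin (Cltrn) at the membrane. In humans, loss of SLC6A19 causes Hartnup disease, loss of SLC3A1 or SLC7A9 causes cystinuria, and loss of SLC7A7 causes lysinuric protein intolerance.

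The libraries held 17791420 to 20906706 counts on genes. CPM are counts of a gene scaled to a common library size, here after TMM normalization. The target gene checks the labels through its time course rather than its mean, since the counts cover the whole gene and not the deleted part. Arntl went from 48.4 ± 10.2 CPM at ZT0 to 2.73 ± 0.825 CPM at ZT8 in control mice, and from 24.4 ± 1.57 to 18.5 ± 1.96 CPM in cKOt mice (SD, n = 5).

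For 7 of the 10 genes, RefSeq (GRCm38.p6) gave the sequence around 12 start sites, from 250 bases before the start to 50 after it. No entry was given for Slc7a12, Slc7a13 and Slc6a18. Stretches of 2 of them are shown because Slc6a19 and Slc7a9 had the largest amplitudes among the transcripts assigned a daily rhythm, as described below. Capitals mark the nuclear receptor element AGGTCA, here on the reverse strand as TGACCT. Slc7a9 is shown at chr7:35448942-35449036 on the plus strand, bases -150 to -56 from a RefSeq start, and Slc6a19 at chr13:73692637-73692756 on the minus strand, bases -120 to -1. Both stretches lie inside the GENCODE spans of these genes given below, so these RefSeq starts are not the outer ends of those spans.
Slc7a9: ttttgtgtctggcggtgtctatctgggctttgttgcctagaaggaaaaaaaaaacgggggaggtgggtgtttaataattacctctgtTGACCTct
Slc6a19: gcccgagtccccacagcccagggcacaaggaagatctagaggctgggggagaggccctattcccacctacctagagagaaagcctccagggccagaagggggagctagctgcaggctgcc
AGGTCA, read on both strands, was found in 3 of the 12 windows, against 16.3% of 32851 promoters in the table. Both windows of Slc7a9 overlap and hold the same match, and the remaining one lies in a window of Slc7a7. Slc7a7 has several of the 12 windows, and some of them overlap, so the 12 are not separate sequences. The E-box CACGTG, to which BMAL1 binds with its partners, was in 0 of the 12 windows and in 7.15% of all promoters. The D-box TTANGTAA was in 0 of the 12 and in 2.32% of all, and the HNF1 element GTTAATNAT in 0 of the 12 and in 0.801% of all. These letters describe the windows only.

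Levels between genes were compared as CPM per kilobase of exon. In control mice, Slc7a13 was the highest at 500 ± 55.8 CPM per kilobase, followed by its heavy chain Slc3a1 at 329 ± 21.3 (SD, n = 30). Slc6a18 reached 142 ± 19.3, Slc6a19 75.4 ± 25.5 and Slc7a9 51.8 ± 8.83 CPM per kilobase. Slc7a7 at 41.0 ± 7.10, Slc3a2 at 39.7 ± 5.34, Slc6a20b at 38.9 ± 2.58 and Slc7a8 at 35.4 ± 5.95 CPM per kilobase lay within their SDs of each other. Slc7a12 was by far the lowest at 0.942 ± 0.576 CPM per kilobase. In cKOt mice, the first 7 places were held by the same transcripts in the same order, and Slc7a12 reached 23.8 ± 10.8 CPM per kilobase but stayed last.

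The first comparison asked whether the mean level of each transcript, over all 6 time points, differed between genotypes. Slc7a12 rose 24.2-fold in cKOt mice, the largest change of the group, and Slc6a18 rose 1.41-fold. The basolateral chains Slc7a7, Slc7a8 and Slc3a2 rose by smaller amounts, Slc7a13 fell to 0.776 of its control level, and Slc6a19 and Slc6a20b fell slightly. The cystinuria genes Slc7a9 and Slc3a1 did not pass the test. By the quasi-likelihood F test of edgeR with Benjamini-Hochberg adjustment over 15546 genes, 5 of the 10 were higher in cKOt mice, where 26.8% of all genes were called higher, and 3 were lower, where 23.2% of all genes were called lower. The median log2 difference was 0.09 over the 10 transcripts and 0.01 over all genes tested.

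**Figure D1:**
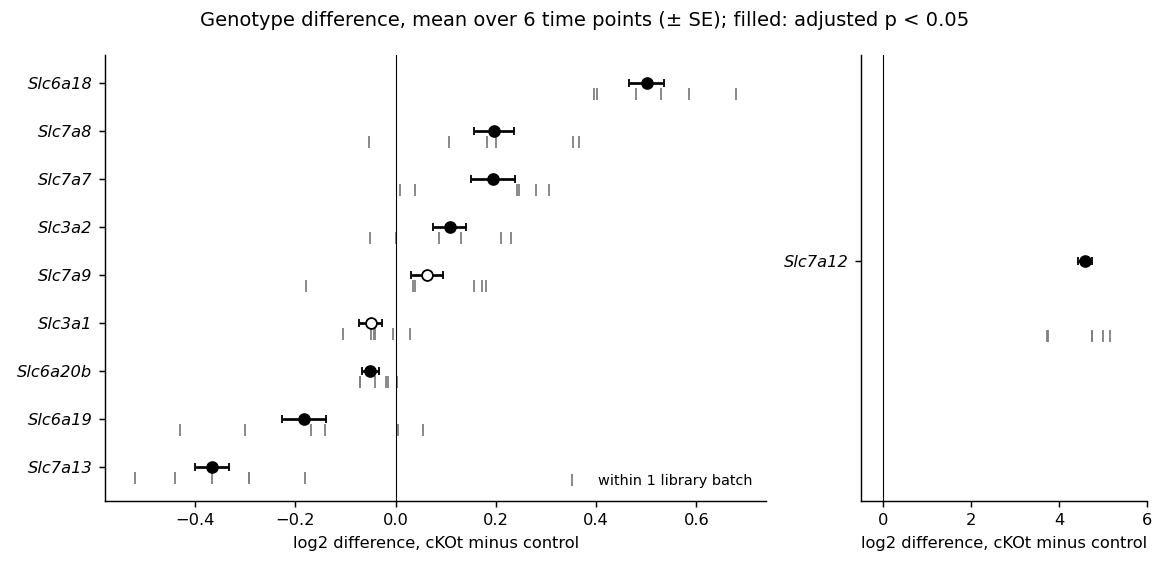
Log2 difference between cKOt and control mice for the 10 transcripts (horizontal axis, mean over 6 time points ± SE, n = 30 per genotype), with Slc7a12 on a wider axis of its own at the right. Filled points passed an adjusted p of 0.05, and grey ticks give the difference within each of the 6 library batches. Slc7a12 at 4.60, Slc6a18 at 0.50 and Slc7a13 at -0.37 keep their side of 0 in every batch, as does Slc7a7.

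Slc7a12 (ENSMUSG00000039710, GRCm38 chromosome 3, 14480697 to 14505830, plus strand) is a neutral amino acid carrier of the Slc7 family whose transcript is known to be more abundant in the kidneys of female than of male mice. In control mice it lay between 0.589 and 5.33 CPM with a median of 1.34, and in cKOt mice between 17.5 and 79.7 CPM with a median of 39.8 (n = 30 each). The lowest cKOt mouse was thus above the highest control mouse. These levels rest on 11 to 99 reads per library in control mice and on 342 to 1591 reads in cKOt mice.

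At ZT0 the control mice had 5.33, 1.66, 0.90, 3.26 and 1.22 CPM of Slc7a12, and the cKOt mice 27.3, 30.7, 26.6, 30.6 and 18.5. At ZT4 the values were 2.29, 2.21, 1.81, 1.92 and 0.725 CPM against 24.7, 25.0, 45.4, 17.5 and 63.5. At ZT8 they were 1.39, 3.51, 0.848, 1.52 and 0.914 CPM against 48.0, 72.6, 71.6, 19.4 and 42.0. In these 3 groups of the light phase, cKOt mice of a single time point differed among themselves by up to several fold, and still none reached down to the control mice. At ZT12 the control mice had 1.34, 2.32, 0.899, 0.804 and 0.956 CPM and the cKOt mice 42.6, 43.7, 29.1, 24.9 and 18.3. At ZT16 the values were 0.859, 1.33, 1.2, 1.17 and 1.57 CPM against 53.1, 37.7, 62.9, 49.0 and 21.0. At ZT20 they were 1.07, 0.589, 1.94, 1.17 and 2.45 CPM against 64.9, 79.7, 30.9, 54.1 and 66.6. The highest mean of all 12 groups was that of cKOt mice at ZT20 and the lowest that of control mice at ZT16, and the step between the genotypes was the only one between neighbouring group means that exceeded both SDs.

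The log2 difference of Slc7a12 was 4.60 (SE 0.16, adjusted p = 3.72e-31) and lay between 3.72 and 5.15 within the 6 library batches. It was 3.44 (SE 0.37) at ZT0, 4.02 (SE 0.41) at ZT4, 4.97 (SE 0.38) at ZT8, 4.55 (SE 0.41) at ZT12, 5.27 (SE 0.41) at ZT16 and 5.32 (SE 0.39) at ZT20, and it passed the test at each of them. A test of whether it varied between time points did not pass (adjusted p = 0.233). The spread among mice was also wide, with an SD of 0.65 on the log2 scale within groups against a median of 0.20 over all genes kept.

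Slc7a13 (ENSMUSG00000041052, chromosome 4, 19818725 to 19842218, plus strand), a light chain of the late proximal tubule that carries cystine and acidic amino acids with Slc3a1, is known as a male-biased transcript of the mouse kidney. Control mice had 1070 ± 119 CPM and cKOt mice 841 ± 110 CPM (SD over 30 mice each), a log2 difference of -0.37 (SE 0.03, adjusted p = 9.95e-14). At ZT0 the control mice had 1152, 1287, 1124, 1092 and 1102 CPM and the cKOt mice 781, 676, 964, 695 and 651 CPM. The genotypes did not overlap at ZT0 and ZT20, and 12 of the 30 cKOt mice were below the lowest control mouse of any time point. Slc7a13 was called lower at all 6 time points, with a log2 difference from -0.61 (SE 0.08) at ZT0 to -0.22 (SE 0.08) at ZT8, and the test of a variation between them did not pass (adjusted p = 0.255). Within batches the difference ranged from -0.52 to -0.18. The calls at ZT4, ZT8 and ZT16 were lost without the RUVs factors of the model, which take up variation shared by libraries irrespective of their group (adjusted p = 0.0828, 0.0916 and 0.0760). Those at ZT8 and ZT16 were also lost without replicate 1 (adjusted p = 0.122 and 0.0639), 2 (0.118 and 0.0577) or 4 (0.249 and 0.278), and that at ZT16 without the cKOt library that the study marks for removal (adjusted p = 0.0578).

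Some markers of cell types also differed between genotypes. Their counts stand beside 26.8% of all genes called higher and 23.2% called lower in cKOt mice. Of 4 hepatocyte markers, 2 of the 3 tested were lower in cKOt mice, and their summed level was between 23.4 and 40.6 CPM in control mice but between 2.53 and 13.3 CPM in cKOt mice, without overlap. The fall was that of Alb, from 8.18 to 1.11 CPM, and of Serpina1a, from 21.8 to 7.02 CPM, while Apoa1 was at 0.402 CPM in control mice and 0.552 CPM in cKOt mice and did not pass (adjusted p = 0.0560), and Tat was near 0 in both genotypes. The summed level of 5 proximal tubule markers overlapped, with 9302 to 13241 CPM in control and 8365 to 13583 CPM in cKOt mice, with 1 higher and 3 lower. Of 4 markers of its early part 3 were higher and 0 lower, and of 5 of its late part 3 were higher and 1 lower. Further along the tubule, 3 of 4 markers of the thick ascending limb were higher and 1 lower. The lower one, Umod, had the highest mean of this list and fell from 3163 to 2354 CPM (log2 difference -0.41). The summed level of the list had a median of 4708 CPM without the deletion and of 3946 CPM with it, and the ranges overlapped. In the distal convoluted tubule 3 of 4 markers were higher and 0 lower, and in the collecting duct 3 of 6 were higher and 2 lower. Of 4 podocyte markers 1 was higher and 0 lower, and of 4 markers of injured tubule 1 was higher and 1 lower. Of 4 T and B cell markers and of 4 enterocyte markers, only 1 each passed the filter on low counts, and both were lower. All 4 endothelial markers, 3 of 4 fibroblast markers and 3 of 4 macrophage markers were lower, with summed levels that overlapped, at 268 to 329 against 219 to 311 CPM, 45 to 182 against 61.3 to 155 CPM and 53.0 to 94.3 against 61.9 to 99.3 CPM. Their part in the differences of the transporters was not tested.

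Slc6a18 and Slc6a19 are carriers of neutral amino acids in the brush border, and their genes are neighbours on chromosome 13, on the minus strand with 1721 bases between them (ENSMUSG00000021612, 73661752 to 73678023, and ENSMUSG00000021565, 73679745 to 73704865). They differed between genotypes in opposite directions. Slc6a18 was at 628 ± 85.2 CPM in control mice and 890 ± 104 CPM in cKOt mice, and 29 of 30 cKOt mice were above the highest control mouse. The log2 difference was 0.50 (SE 0.04, adjusted p = 5.30e-18) and lay between 0.40 and 0.68 within batches.

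At ZT12, where the difference of Slc6a18 was widest, the control mice had 460, 528, 498, 556 and 568 CPM and the cKOt mice 870, 804, 807, 849 and 839 CPM. At ZT0, where it was narrowest, the control mice had 737, 688, 669, 681 and 742 CPM and the cKOt mice 972, 826, 962, 791 and 865 CPM. At each of the 6 time points every cKOt mouse was above every control mouse. The log2 difference was 0.33 (SE 0.09) at ZT0 and 0.66 (SE 0.09) at ZT12, and its variation over the day did not pass the test (adjusted p = 0.505). Without replicate 3 of each group, the call at ZT0 was lost (adjusted p = 0.0749).

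Slc6a19, the main apical carrier of neutral amino acids, had a mean of 378 ± 128 CPM in control mice and of 329 ± 94.6 CPM in cKOt mice over all time points (SD, n = 30). Its log2 difference was -0.18 (SE 0.04, adjusted p = 5.17e-04). At ZT4, the control mice had 468, 508, 511, 685 and 419 CPM and the cKOt mice 404, 353, 381, 373 and 447 CPM. The groups overlapped in a single cKOt mouse, and the log2 difference of -0.41 (SE 0.11, adjusted p = 0.00968) was the only one of the 6 time points past the threshold. That call was lost without replicate 2 (adjusted p = 0.0757) or replicate 4 (adjusted p = 0.0990) of each group. Within batches the difference over all time points ranged from -0.43 to 0.06, so it was not negative in each of them.

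Slc6a20b (ENSMUSG00000025243, chromosome 9, 123590800 to 123632565, minus strand) belongs to the Slc6a20 proteins named above. It varied the least among mice, with an SD of 0.08 on the log2 scale within groups. Control mice had 332 ± 22.0 CPM and cKOt mice 322 ± 17.2 CPM, and the log2 difference of -0.05 (SE 0.02, adjusted p = 0.0147) was lost without RUVs factors (adjusted p = 0.0990), with the library batch in their place (adjusted p = 0.157) and without replicate 1 (adjusted p = 0.123). Its exons overlap those of Sacm1l on the opposite strand over 1800 bases, and of its stretches of 50 bases 7.76% also occur in other genes, nearly all in its paralog Slc6a20a. The strand setting of the counting is not given in the sources used here, so its level and that of Slc6a20a are uncertain. The exons of Slc7a7 and of Slc3a1 also overlap a gene on the opposite strand, Oxa1l over 232 bases and Prepl over 601 bases.

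Of the basolateral chains, Slc7a7 (ENSMUSG00000000958, chromosome 14, 54369442 to 54417780, minus strand) exports cationic amino acids and Slc7a8 (ENSMUSG00000022180, chromosome 14, 54722209 to 54781946, minus strand) exchanges neutral ones, both with the heavy chain Slc3a2 (ENSMUSG00000010095, chromosome 19, 8706882 to 8723369, minus strand). Slc7a7 was at 136 ± 23.5 CPM in control mice and 154 ± 17.5 CPM in cKOt mice, a log2 difference of 0.19 (SE 0.04, adjusted p = 2.16e-04). Slc7a8 was at 177 ± 29.8 and 201 ± 28.6 CPM, a difference of 0.20 (SE 0.04, adjusted p = 3.06e-05). Slc3a2 was at 140 ± 18.8 and 149.9 ± 21.7 CPM, a difference of 0.11 (SE 0.03, adjusted p = 0.00672). The 3 chains thus rose by similar small amounts, and for each of them the ranges of the genotypes overlapped over all mice.

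Within batches Slc7a7 ranged from 0.01 to 0.31, Slc7a8 from -0.05 to 0.37 and Slc3a2 from -0.05 to 0.23. The call of Slc3a2 was lost without replicate 3 (adjusted p = 0.0571) or replicate 5 (adjusted p = 0.0890). By time point, Slc7a7 passed only at ZT16, where the control mice had 159, 130, 105, 87.3 and 117 CPM and the cKOt mice 160, 186, 144, 151 and 164 CPM. Slc7a8 passed only at ZT12, with 125, 158, 134, 161 and 140 CPM in control and 158, 163, 185, 193 and 174 CPM in cKOt mice, and that call was lost without RUVs factors (adjusted p = 0.0608) and without replicate 1, 3 or 5 (adjusted p = 0.0824, 0.118 and 0.0724). Both pairs of groups overlapped, and a difference between these time points and the others was not shown, since the variation over the day did not pass for either (adjusted p = 0.605 for Slc7a7 and 0.813 for Slc7a8).

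Slc7a9 (ENSMUSG00000030492, chromosome 7, 35448796 to 35466036, plus strand) is the light chain and Slc3a1 (ENSMUSG00000024131, chromosome 17, 85028376 to 85064236, plus strand) the heavy chain of the apical exchanger for cystine and cationic amino acids. Slc7a9 was at 139 ± 23.6 CPM in control mice and 145 ± 20.9 CPM in cKOt mice, with a log2 difference of 0.06 (SE 0.03, adjusted p = 0.0948). Slc3a1 was at 747 ± 48.3 and 723 ± 45.5 CPM, with a log2 difference of -0.05 (SE 0.02, adjusted p = 0.0603). These differences are small beside those of Slc7a13, the other partner of Slc3a1. They lie near the threshold, however, and that of Slc7a9 passed without replicate 2 (adjusted p = 0.0161) and that of Slc3a1 without replicate 3 (adjusted p = 0.0410).

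Taking the time points one at a time, the number of the 10 transcripts called in either direction was 3 at ZT0, where 12.1% of all genes were called, 4 at ZT4 (12.5%), 3 at ZT8 (19.9%), 4 at ZT12 (21.0%), 4 at ZT16 (19.8%) and 3 at ZT20 (13.8%). Slc7a12, Slc7a13 and Slc6a18 were called at all 6 and made up the 3 at ZT0, ZT8 and ZT20. For 0 of the 10 did the genotype difference vary over the day by the F test of edgeR, where 3.08% of all genes did. Before adjustment, the p of this F test was 0.0224 for Slc7a12 and 0.0263 for Slc7a13. DESeq2 and limma also called 0 of the 10. Over the alternatives that kept all replicate numbers, 263 to 689 of all genes were called.

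The next question was whether the transcripts varied over the day in either genotype. In control mice 7 of the 10 did by the F test, where 30.6% of all genes did, and in cKOt mice 5 of the 10, where 26.6% did. Slc7a9, Slc3a2, Slc6a18 and Slc6a19 passed in both genotypes, Slc7a7, Slc7a8 and Slc6a20b in control mice and Slc7a12 in cKOt mice. Slc7a13 and Slc3a1 passed in neither. Differences in rhythm between genotypes are not shown by these lists, since the interaction passed for none of the transcripts.

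**Figure D2:**
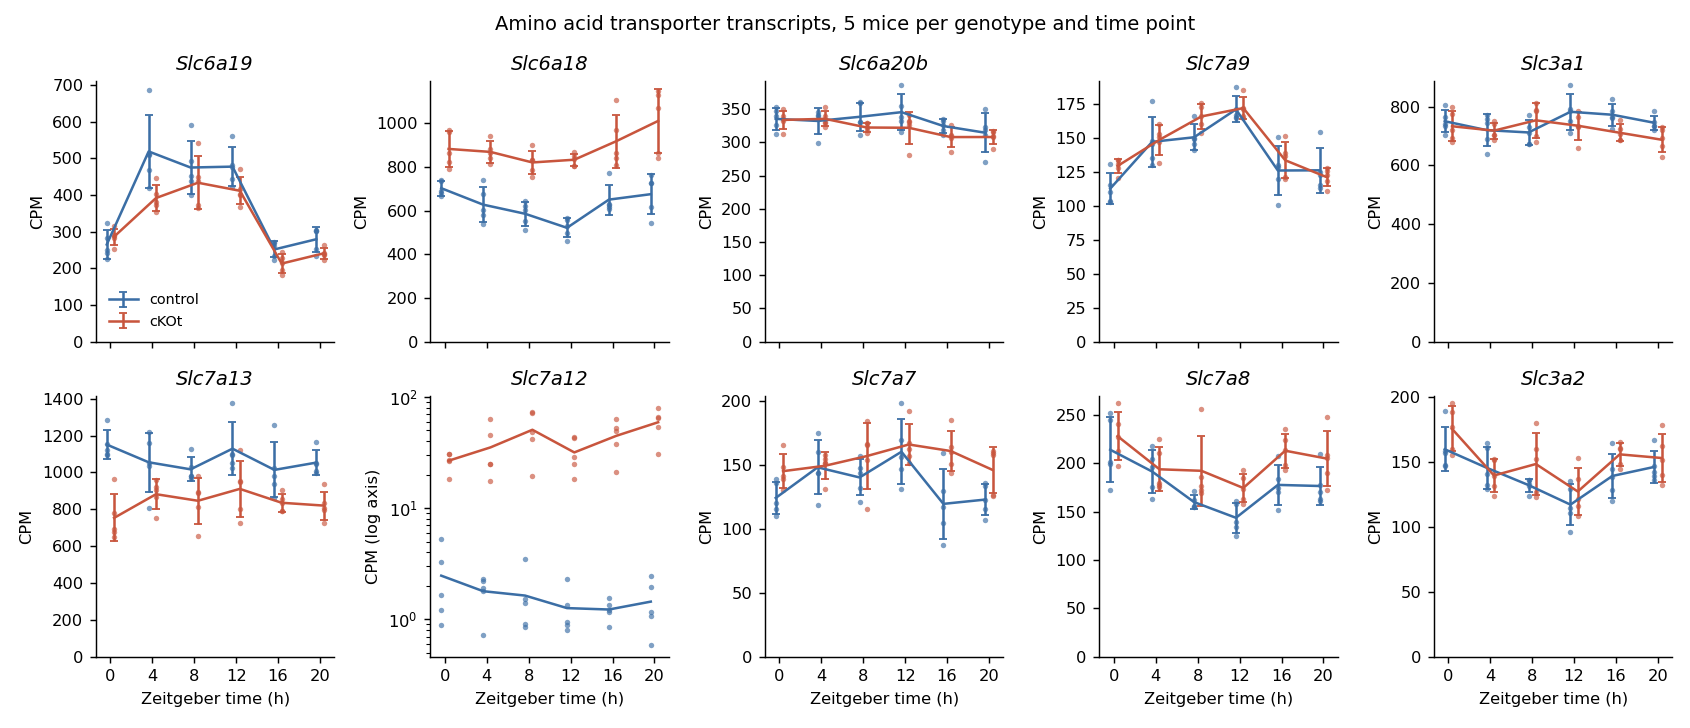
Level of each transcript in CPM (vertical axis) by zeitgeber time (horizontal axis) in control and cKOt mice, with points for single mice and lines through the means of 5 mice ± SD, on a log axis without SD for Slc7a12. Slc6a19 is low at ZT0, ZT16 and ZT20 and higher between ZT4 and ZT12 in both genotypes, and Slc7a12 and Slc6a18 are higher in cKOt mice at each time point.

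Slc6a19 had the largest amplitude of the transcripts assigned a rhythm, as given below. Its control mean was 265 ± 39.2 CPM at ZT0, 518 ± 100.3 at ZT4, 475 ± 73.3 at ZT8, 477 ± 52.6 at ZT12, 251 ± 21.9 at ZT16 and 279 ± 33.7 at ZT20 (SD, n = 5). Its cKOt mean was 286 ± 22.1 CPM at ZT0, 392 ± 35.7 at ZT4, 433 ± 71.6 at ZT8, 411 ± 37.0 at ZT12, 213 ± 24.7 at ZT16 and 241 ± 14.8 at ZT20. In both genotypes the transcript was thus high from ZT4 to ZT12 and low at ZT16, ZT20 and ZT0. At ZT16 the control mice had 269, 262, 270, 235 and 222 CPM and the cKOt mice 182, 228, 196, 244 and 215 CPM, all below every mouse of ZT4, ZT8 and ZT12. The change over time had an adjusted p of 3.61e-14 in control and 1.80e-11 in cKOt mice.

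Daily rhythm was modelled with a 24 h harmonic curve, and transcripts were assigned to a model at a weight of at least 0.65 by the Bayesian information criterion (BIC). Model 1 has no rhythm, models 2 and 3 a rhythm in control or in cKOt mice only, and models 4 and 5 the same or a different rhythm in both genotypes. Of the 10 transcripts, 6 were assigned to model 4, which held 25.2% of all genes, and 3 to model 1, which held 34.0%. Slc7a7 remained unassigned, with model 2 the nearest at a weight of 0.476 and an amplitude of 0.37 (SE 0.11) in control and 0.20 (SE 0.08) in cKOt mice. The amplitude is the log2 distance from peak to trough. Without replicate 2 Slc7a7 went to model 4 with a weight of 0.852, and without replicate 3 Slc7a13, one of the transcripts of model 1, went to model 3 with a weight of 0.713. Without replicate 2, the nearest model of Slc6a20b was model 5 at a weight of 0.532, under the limit.

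The 6 rhythmic transcripts peaked at different times of the day. Slc6a19 peaked at ZT7.66 in control and ZT7.24 in cKOt mice, with an amplitude of 1.14 (SE 0.14) and 1.04 (SE 0.11). Slc7a9 peaked at ZT9.66 and ZT9.15, with an amplitude of 0.51 (SE 0.09) and 0.51 (SE 0.05). The fitted peaks of both thus lay in the later light phase, whereas the highest group mean was at ZT4 in control and ZT8 in cKOt mice for Slc6a19 and at ZT12 in both for Slc7a9. The basolateral pair Slc7a8 and Slc3a2 was highest around lights on, with shared peaks at ZT23.2 and ZT23.1 and shared amplitudes of 0.35 and 0.32. Slc6a18 had its shared peak at ZT21.5 with an amplitude of 0.30, and Slc6a20b at ZT5.97 with an amplitude of 0.10. Fitted by genotype, Slc6a18 peaked at ZT22.5 in control and ZT19.9 in cKOt mice, with amplitudes of 0.38 and 0.26. For Slc6a20b these peaks were ZT7.59 and ZT4.05, with amplitudes of 0.12 and 0.10. The amplitude by genotype was 0.44 and 0.27 for Slc7a8 and 0.35 and 0.29 for Slc3a2. Slc6a18 and Slc6a19, neighbours on the chromosome, were thus far apart in time.

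**Figure D3:**
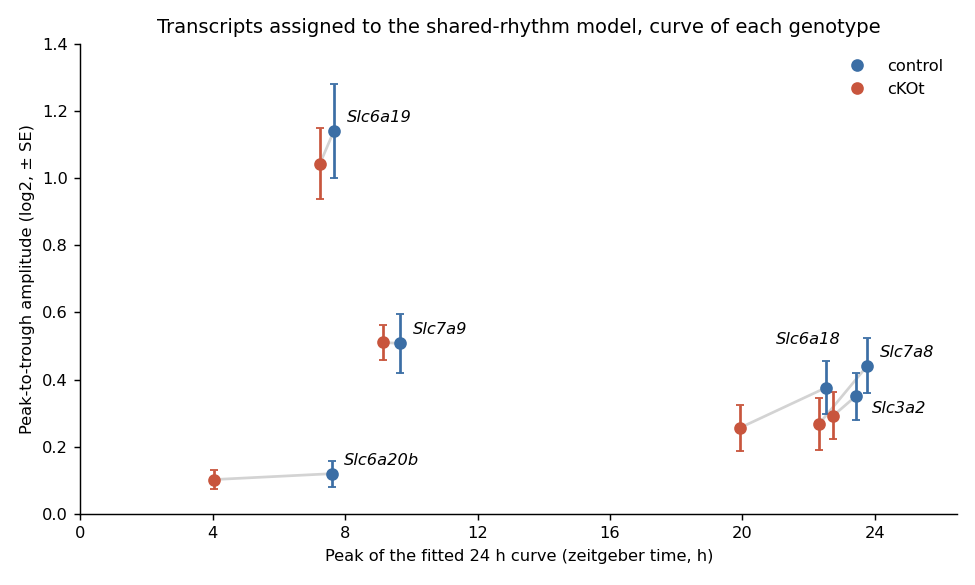
Peak time of the fitted 24 h curve (horizontal axis, zeitgeber time in h) and its peak-to-trough amplitude (vertical axis, log2 ± SE) in control and cKOt mice for the 6 transcripts assigned to the shared rhythm, with a line joining the genotypes. Slc6a19 and Slc7a9 peak between ZT7.24 and ZT9.66, and Slc7a8 and Slc3a2 between ZT22.3 and ZT23.8.

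At single mice, the Slc7a9 values of control mice were 110, 103, 115, 103 and 131 CPM at ZT0 and 165, 166, 164, 187 and 171 CPM at ZT12. In cKOt mice they were 121, 133, 133, 128 and 131 CPM at ZT0 and 172, 164, 185, 171 and 166 CPM at ZT12. Neither genotype overlapped between these times. The adjusted p of the change over time was 1.08e-07 in control and 1.08e-06 in cKOt mice. Slc3a1, its heavy chain, was assigned to no rhythm, and its 12 group means lay between 688 and 783 CPM.

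Slc7a8 fell from 214 ± 33.5 CPM at ZT0 to 144 ± 15.4 CPM at ZT12 in control mice and was at 228 ± 25.0 and 175 ± 14.7 CPM in cKOt mice, where the change over time did not pass (adjusted p = 0.0839). Slc3a2 went the same way, from 159.7 ± 17.0 to 117 ± 15.7 CPM in control and from 175 ± 17.4 to 127 ± 17.7 CPM in cKOt mice. Its calls were lost without replicate 1 in control mice (adjusted p = 0.0518) and without replicate 5 in cKOt mice (adjusted p = 0.0677). Slc6a18 was at 703 ± 33.5 CPM at ZT0 and 522 ± 43.9 CPM at ZT12 in control mice, and at 883 ± 81.1 and 834 ± 28.4 CPM in cKOt mice. Its call in cKOt mice (adjusted p = 0.0379) was lost in 7 of 15 alternative analyses, among them that without RUVs factors (adjusted p = 0.0656) and those without replicate 1, 2 or 3 (adjusted p = 0.241, 0.225 and 0.158). The call of Slc7a12 in cKOt mice (adjusted p = 0.00328) was lost with DESeq2 (adjusted p = 0.0861), with limma (adjusted p = 0.139) and with the library batch as a term (adjusted p = 0.0546), and its curve was assigned to no rhythm. Slc6a20b in control mice (adjusted p = 0.0280) lost its call without RUVs factors (adjusted p = 0.349) and without replicate 1, 3 or 4 (adjusted p = 0.154, 0.258 and 0.0941), and Slc7a7 lost its own without replicate 4 (adjusted p = 0.110).

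How the transcripts vary with each other was described by the correlation of their deviations from the group means over the 60 mice, which takes out genotype and time. The members of the basolateral pairs went together most closely, with r = 0.76 for Slc7a8 and Slc3a2 and r = 0.70 for Slc7a7 and Slc3a2. The same chains also followed the summed proximal tubule markers, with r = 0.64 for Slc7a8, 0.57 for Slc3a2 and 0.52 for Slc7a7. For the other transcripts this r lay between -0.37 and 0.39. Slc7a7 and Slc7a9, light chains for cationic amino acids on opposite sides of the cell, had r = 0.62. Slc3a1 had r = 0.48 with Slc7a13 and r = 0.10 with Slc7a9, its partners at the apical membrane. Of the 45 pairs 7 had an r of at least 0.5 and 14 an r below 0, and the median was 0.21. The highest r of Slc7a12 was 0.21, with Slc6a18, and its r with Slc7a13 was 0.19 although the genotype moved both in opposite directions. These points share libraries, depth and dissection, so the values are descriptions only.

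**Figure D4:**
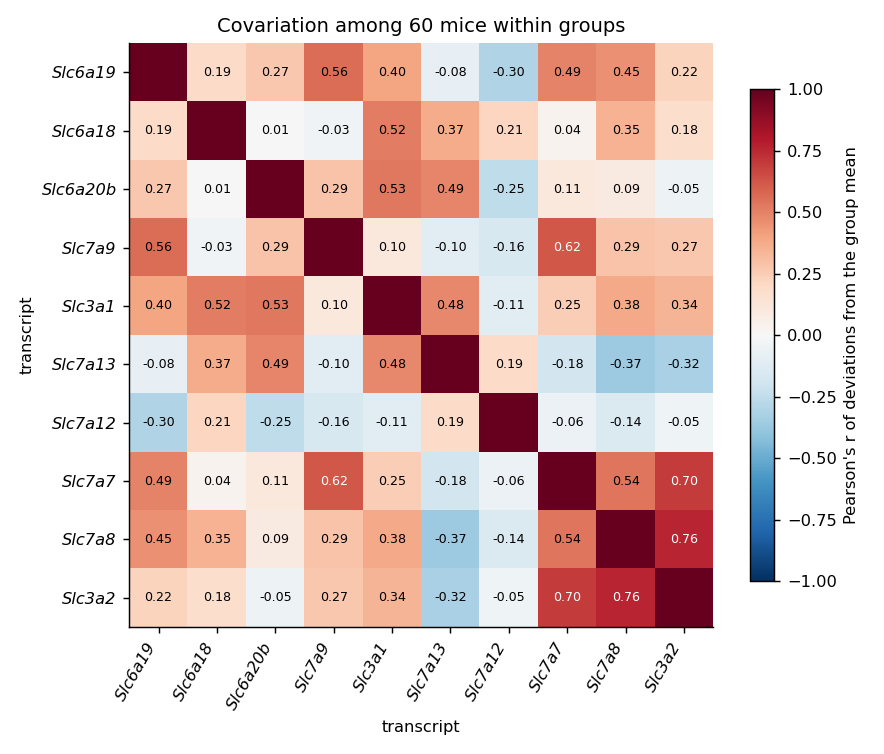
Pearson correlation between the 10 transcripts (both axes) of the deviations of single mice from the mean of their genotype and time point, over 60 mice, on a color scale from -1 to 1. The square of Slc7a7, Slc7a8 and Slc3a2 holds values from 0.54 to 0.76, and the row of Slc7a12 holds values from -0.30 to 0.21.

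The gene most like each transcript was taken as that with the highest Pearson correlation of the 12 group means. Each r is thus the maximum over all genes with a mean of at least 1 CPM. Such a maximum is high by selection, and it was not tested against chance. For Slc7a12 it was Vmn1r32 (r = 0.991), which was read in 4 of 30 control libraries, with at most 2 reads, and at 3.27 to 9.23 CPM in cKOt mice. Slc6a19 was followed most closely by Tmem174 (r = 0.988), Slc6a18 by Twsg1 (r = 0.982), Slc7a9 by Snhg11 (r = 0.972), Slc7a8 by Hhatl (r = 0.957) and Slc7a13 by Rida (r = 0.953). For Slc3a2 the nearest of all genes was Slc7a8 itself (r = 0.934), a light chain with which it pairs. Slc7a7 was nearest to Olfml1 (r = 0.916), Slc3a1 to Nucb2 (r = 0.901) and Slc6a20b to Epdr1 (r = 0.901). After RUVs correction the same gene came first for 5 of the 10, Slc7a12, Slc7a13, Slc3a1, Slc6a19 and Slc6a20b.

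The wider set of amino acid and peptide carriers, with the partner protein collectrin, held 39 symbols. Of these 38 had a row, and the symbol without one, Tmem27, is another name of collectrin (Cltrn). The filter on low counts was passed by 34, with the remaining 4 (Slc7a10, Slc7a11, Slc7a14 and Slc38a5) under it. In cKOt mice 18 of the 34 were higher, where 26.8% of all genes were, 7 were lower, where 23.2% of all genes were, and 9 did not pass the test. The median log2 difference was 0.13, against 0.01 over all genes. The interaction of genotype and time passed for 0 of them by edgeR, against 3.08% of all genes, and the change over time in control mice passed for 13, against 30.6% of all genes.

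The partner protein had the highest log2 difference of this set, within the error of that of Slc6a12. Cltrn, collectrin, was at 1419 ± 172 CPM in control mice and 2217 ± 291 CPM in cKOt mice, a log2 difference of 0.62 (SE 0.03, adjusted p = 1.91e-27). The highest control mouse had 1859 CPM of Cltrn and the lowest cKOt mouse 1749 CPM, so the ranges met only at their ends. Of the carriers named above as its partners, Slc6a18 was higher in cKOt mice, and Slc6a19 and Slc6a20b were lower. The paralog Slc6a20a was at 24.7 ± 5.65 and 23.0 ± 4.39 CPM, a difference of -0.10 (SE 0.04, adjusted p = 0.0449).

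Among the other carriers, the largest increases were those of Slc6a12, a betaine and GABA carrier, with a log2 difference of 0.59 (SE 0.10) from 2.77 ± 0.995 CPM in control mice, of the glutamine carrier Slc38a3, with 0.49 (SE 0.10) from 56.1 ± 19.5 CPM, and of the neutral amino acid carrier Slc6a17, with 0.39 (SE 0.04) from 20.6 ± 3.21 CPM. The largest decreases were those of the glutamate carrier Slc1a2 with -0.62 (SE 0.06) from 6.78 ± 1.23 CPM, of Slc6a15 with -0.48 (SE 0.05) from 113 ± 19.3 CPM, of the cationic amino acid carrier Slc7a2 with -0.46 (SE 0.05) from 10.8 ± 1.96 CPM and of Slc38a4 with -0.30 (SE 0.06) from 5.15 ± 1.14 CPM. None of them approached the change of Slc7a12.

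**Figure D5:**
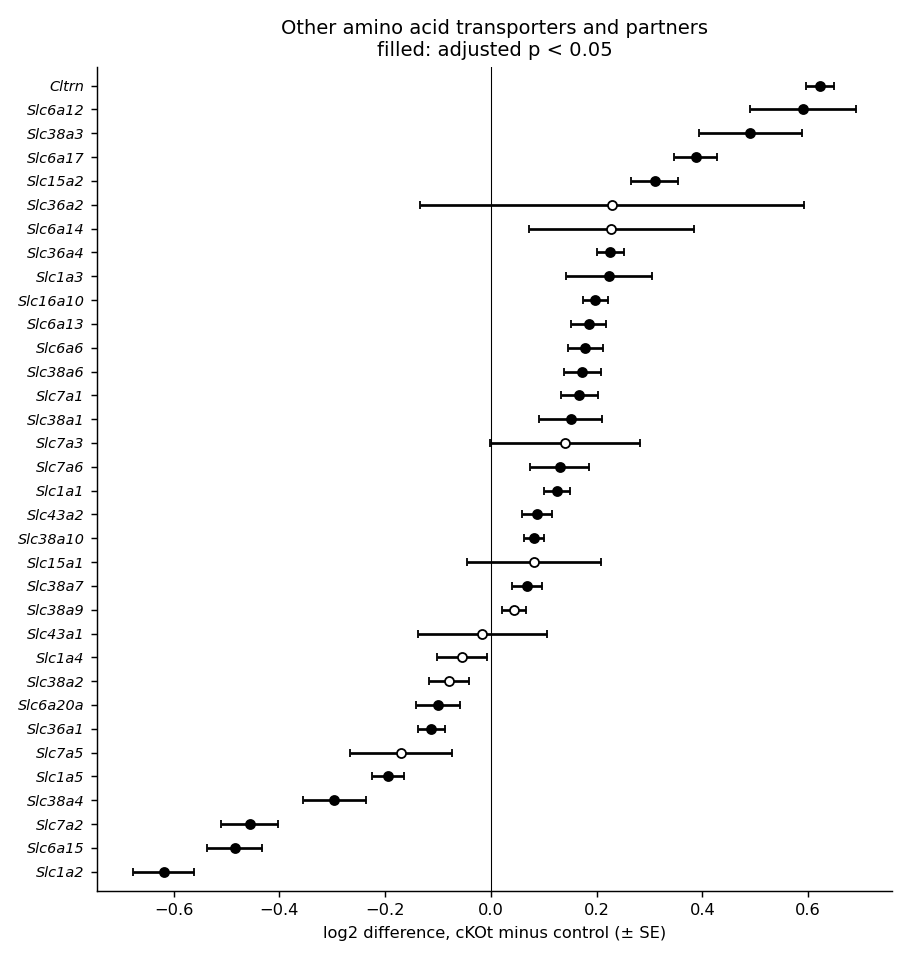
Log2 difference between cKOt and control mice (horizontal axis, ± SE, n = 30 per genotype) for the 34 other genes of the wider set that passed the filter (vertical axis), ordered by size, with filled points past an adjusted p of 0.05. Cltrn at 0.62 is at the top and Slc1a2 at -0.62 at the bottom.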

How the data were processed

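Kidney RNA of 60 mice was sequenced by the authors as single reads from stranded poly(A) libraries. Per the labels, the submitters' processing notes name cutadapt (version 1.8), STAR (version 2.5.3a), HTSeq (version 0.9.1) and GRCm38. The deposited values are raw counts of reads per Ensembl gene, not normalized. Lines that name no gene were left out (no feature, 7.17% to 10.6%, and ambiguous, 0.953% to 1.27%, of the reads that gave either or fell on genes). Among these lines were also 6601679 to 9164579 alignments per library that were not unique, which those percentages do not include. Symbols and positions came from GENCODE vM21.

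The filter kept the 15546 genes that reached 1 CPM in 1 or more samples. Differences were tested with the quasi-likelihood F test of edgeR (version 4.0.16, R version 4.3.3) on TMM library sizes, with the 12 groups and 2 RUVs factors, the latter written anew from logCPM with a prior count of 2. Benjamini-Hochberg adjustment ran over all of these genes, with a threshold of 0.05. Rhythms were assigned with the 5 models of dryR, written anew, at a BIC weight of 0.65. Scripts were tested on simulated data. Alternatives used DESeq2 (version 1.42.0), limma (version 3.58.1), other filters and factors, the library batch, a replicate block, and fewer samples. Library batches and the library marked for removal were read from a supplementary table. The authors kept 5 of the mice prepared for each group by RNA quality and likeness to the other replicates, so the spread within groups may be understated.

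The named genes are the 10 members, Arntl, for each member the gene with the highest correlation of group means (mean of at least 1 CPM), and of the wider list the 4 largest increases and 4 largest decreases past the threshold with Cltrn and Slc6a20a. An item of that list is not reported here. The members and lists were chosen with earlier results of these data known.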

Additional observations from a re-analysis of the deposited data

Results flagged for a closer look

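In each of the 120 combinations of a transcript and a group of 5 mice, the mouse farthest from the others was set against the range of its group with Dixon's ratio, which picks out about 1 in 20 groups by chance. It found 9 such values. Slc7a12 was at 3.51 CPM in 1 control mouse at ZT8 (replicate 2), with the next at 1.52 CPM. Slc7a13 was at 1377 CPM in a control mouse at ZT12 (replicate 4), with the next at 1101 CPM, and Slc6a18 at 773 CPM in a control mouse at ZT16 (replicate 4), with the next at 632 CPM. Slc7a9 was high at 154 CPM in a control mouse at ZT20 (replicate 2), Slc3a2 at 189 CPM in a control mouse at ZT0 (replicate 1) and Slc7a8 at 256 CPM in a cKOt mouse at ZT8 (replicate 4). Slc7a7 was low at 131 CPM in a cKOt mouse at ZT4 (replicate 2), and Slc6a20b was low at 299 CPM in a control mouse at ZT4 (replicate 5) and at 280 CPM in a cKOt mouse at ZT12 (replicate 3). Among these, the high control values of Slc7a12 and Slc6a18 lie toward the cKOt mice, and that of Slc7a13 away from them.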

How the results depend on the processing

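Over 15 alternatives each, the genotype differences of the 10 transcripts kept their direction in 150 of 150 values and their side of the threshold in 140, and those of Slc7a12, Slc7a13, Slc7a7, Slc7a8, Slc6a18 and Slc6a19 kept it in all. The exceptions are 5 values of Slc3a2 and Slc6a20b that no longer passed and 5 of Slc3a1 and Slc7a9 that now passed, and Slc3a1 did so with DESeq2 (adjusted p = 0.0197). Within single batches the sign turned for Slc7a8 (-0.054), Slc3a2 (-0.051) and Slc6a20b (0.0021) in batch 1 and for Slc6a19 in batches 4 (0.055) and 5 (0.0047), and, of the transcripts not called, for Slc7a9 in batch 6 (-0.18) and Slc3a1 in batch 5 (0.03). Replicate numbers do not pair the mice, since deviations correlated by 0.0043 on average over samples of the same number and by -0.0010 over others, and with the replicate block 8 of the 10 were called for genotype and no call of a transcript changed.

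Counts over all genes that moved by more than 1.5 times fell without RUVs factors to 263 from 479 for the interaction and to 983 from 1884, 2013 from 3095, 1853 from 3071 and 1407 from 2140 at ZT0, ZT8, ZT16 and ZT20. With the batch in place of RUVs they were 312, 1130, 1991, 1829 and 1419, and 3091 against 1950 at ZT4. Leaving out a replicate number gave 233 to 429 for the interaction and 2608 to 3375 against 4142 for time in cKOt mice. With limma, 3 of the 10 transcripts in place of 5 varied over time in cKOt mice. Model 1 held 1 of them at a BIC weight of 0.8 and 1 to 3 without a replicate number, against 3. Model 4 held 4 to 6 of them over 10 alternatives, against 6, and the weights of Slc6a18 (0.761) and Slc6a20b (0.756) were under 0.8. The nearest gene was kept for 5 of 10 after RUVs correction. The cause was not tested. At 11 to 99 reads per control library, Slc7a12 is the transcript whose control level depth limits most.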
